A study of Mus musculus with 8 samples.

Results

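The 7 genes described here encode heart transcription regulators of 3 kinds: the homeodomain factors *Nkx2-5* and *Nkx2-6*, the MADS-box factors *Mef2a*, *Mef2c* and *Mef2d*, and the MADS-box factor *Srf* with its coactivator *Myocd* (Myocardin). They were chosen by name and found by Ensembl identifier among the 49315 genes counted, and all 7 passed the filter on low counts. RNA was measured by poly-A selected RNA sequencing in whole mouse hearts at embryonic day 9.5. There were 4 wild-type (WT) libraries and 4 from embryos homozygous for Tbx20EH1Mut (MT), each made from 3 pooled hearts described as biological replicates. The Tbx20EH1Mut allele is a germline amino acid substitution, made by CRISPR/Cas9, in the EH1 domain of the T-box factor Tbx20, the domain that binds TLE corepressors. Every cell of an MT embryo carries it, so a library averages its effects over all cell types of the dissected heart. The comparison asks whether the level of each regulator differed between hearts with and without an intact Tbx20 EH1 domain.

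Of the 7 regulators, *Nkx2-6* rose in MT hearts and *Mef2d* fell, with calls that were each kept in only 2 of 8 fits with 1 library left out. Without WT replicate 2 the log2 fold change of *Mef2d* went from -0.58 to -0.36, and that of *Nkx2-6* went from 1.73 to -0.38 with the level of endoderm markers as a covariate. That covariate was itself higher in MT hearts and is largely confounded with genotype. *Srf* lay lower in every MT library than in any WT library but did not pass the adjusted threshold, and *Myocd* and *Mef2a* had lower means without passing it. The levels of *Nkx2-5* and *Mef2c* overlapped broadly between the genotypes. The share of regulators called, 2 of 7 (28.6%), was close to the 29.3% of all 17163 tested genes that were called, so the count itself is not a result about these genes.

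Nkx2-5 is the cardiac NK2 homeodomain factor that binds DNA together with GATA and T-box factors in the first muscle cells of the heart, and Nkx2-6 is its relative in pharyngeal endoderm and parts of the early heart tube. MEF2 factors bind A/T-rich sites in muscle genes and are held inactive or switched on by partners such as class II histone deacetylases and the kinase p38. SRF binds the CArG box, and its targets depend on its partner: Myocardin directs it to muscle genes, while ternary complex factors of the ETS family direct it to immediate-early genes.

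Letters of the CArG box, the sequence that SRF binds, stand close to the start site of *Srf* itself, and its upstream sequence is shown for that reason. Beside it is the upstream sequence of *Mef2c* that holds the letters of a T-box site, since the factor altered in these embryos is a T-box factor. The 250 bases before the start site were read from RefSeq's promoter table for GRCm38.p6, which had entries for *Nkx2-5*, *Mef2a*, *Mef2c* (3 start sites), *Mef2d* and *Srf*. *Nkx2-6* and *Myocd* were not matched. Capitals mark CArG boxes in the *Srf* sequence (chr17:46556163-46556412, minus strand) and the T-box site in the *Mef2c* sequence (chr13:83523406-83523655, plus strand), both written 5′ to 3′.
Srf: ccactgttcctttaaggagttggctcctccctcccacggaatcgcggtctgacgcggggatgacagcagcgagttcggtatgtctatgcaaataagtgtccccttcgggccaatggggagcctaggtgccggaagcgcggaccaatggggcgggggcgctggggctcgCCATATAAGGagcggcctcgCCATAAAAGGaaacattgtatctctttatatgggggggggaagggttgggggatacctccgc
Mef2c: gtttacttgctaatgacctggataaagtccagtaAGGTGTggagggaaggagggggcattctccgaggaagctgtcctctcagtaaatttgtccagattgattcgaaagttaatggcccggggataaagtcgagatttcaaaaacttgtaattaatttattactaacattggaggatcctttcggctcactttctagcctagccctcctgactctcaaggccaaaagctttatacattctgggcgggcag

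In the *Srf* sequence, CCATATAAGG lay from 82 to 73 bases before the start site and CCATAAAAGG from 62 to 53 bases before it. The search covered both strands for the CArG box, the MEF2 site, an Nkx2 site (TNAAGTG) and a T-box site (AGGTGT). Over 32851 windows of the same length, 1.47% held a CArG box, 2.92% a MEF2 site, 10.1% the Nkx2 site and 11.8% the T-box site. The *Mef2c* T-box site lay from 216 to 211 bases before one of its 3 start sites, and the windows of the other regulators with an entry held none of the motifs. These matches are descriptions of letters, and binding was not measured here.

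Total counts on genes lay between 33359322 and 49523086 per WT library and between 36250675 and 38357025 per MT library. *Tbx20* itself was detected in all libraries, at 353, 366, 380 and 372 CPM (counts scaled to a common library size) in WT replicates 1 to 4 and 215, 247, 289 and 317 CPM in MT replicates 1 to 4. It was called lower in MT hearts (log2 fold change -0.46, adjusted p = 0.0273 from edgeR), with no overlap between the genotypes. The call was kept in 8 of 11 alternatives, over which the log2 fold change lay between -0.55 and -0.29. It was kept in 4 of 8 fits with 1 library left out, and the adjusted p was 0.0726, 0.0712, 0.0630 and 0.0662 without WT replicate 3 or 4 or MT replicate 1 or 2. Since gene-level counts cannot reveal the altered codons, genotypes rest on the labels. WT replicates 1 and 2 stood furthest apart of all pairs within a genotype, partly along gene length: the median gene in the quartile with the longest exons (at least 5839.5 bases) lay 0.21 above its mean over the WT libraries in WT replicate 2 and at -0.13 in WT replicate 1, on the log2 scale. Among markers of other cells, the 12 of pharyngeal and foregut endoderm summed to between 190 and 300 CPM in WT and between 657 and 904 CPM in MT libraries, the 7 second heart field markers to 44.0 to 81.3 and 215 to 363 CPM, and the 6 erythroid markers to 1078 to 2753 and 179 to 588 CPM. Cardiomyocyte markers (10 genes) summed to between 21570 and 28309 CPM in WT and between 24123 and 37979 CPM in MT libraries, endothelial and endocardial markers (8) to 642 to 827 and 833 to 913 CPM, proepicardial markers (4) to 48.4 to 151 and 111 to 152 CPM, and neural crest markers (6) to 52.2 to 56.8 and 63.7 to 82.5 CPM. The neural crest sum was mostly *Ets1*, at means of 52.5 CPM in WT and 64.9 CPM in MT, and of the proepicardial markers only *Wt1* had a higher mean in MT (25.5 and 76.7 CPM). Neural tube markers (6) stayed at or below 9.75 CPM and skeletal muscle and somite markers (6) at or below 10.3 CPM, with *Myf5*, *Myod1*, *Pax3* and *Pax7* each averaging under 0.2 CPM. In such bulk samples, fewer cells of a type and less RNA per cell cannot be told apart.

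To compare abundance between genes, levels were divided by exon length in kilobases (CPM per kb). In WT hearts *Nkx2-5* was the most abundant of the 7, at 320.5 ± 36.8 CPM per kb (SD, n = 4), above 98.9% of the genes tested. *Srf* followed at 57.4 ± 4.79 and *Mef2d* at 18.7 ± 5.27 CPM per kb, and neither range touched the one before it. *Mef2c* (9.43 ± 1.09), *Myocd* (8.63 ± 4.76), *Mef2a* (7.72 ± 0.470) and *Nkx2-6* (6.26 ± 5.43 CPM per kb) came last. The ranges of *Myocd* and *Nkx2-6* spanned those of their neighbours in that order, whereas the ranges of *Mef2c* and *Mef2a* did not touch. In MT hearts *Nkx2-5* and *Srf* again led, at 307.6 ± 57.6 and 46.7 ± 4.20 CPM per kb, and *Nkx2-6* came next at 20.8 ± 12.8 CPM per kb, overlapping with *Mef2d* at 12.5 ± 1.05 and *Mef2c* at 10.3 ± 3.89 CPM per kb. *Mef2a* (6.40 ± 0.802) and *Myocd* (4.90 ± 0.393 CPM per kb) were lowest and did not overlap. The exon lengths of *Mef2a* (14681 bases) and *Mef2c* (15715 bases) join all annotated isoforms, which lowers their per-length level relative to genes with few isoforms.

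**Figure D1:**
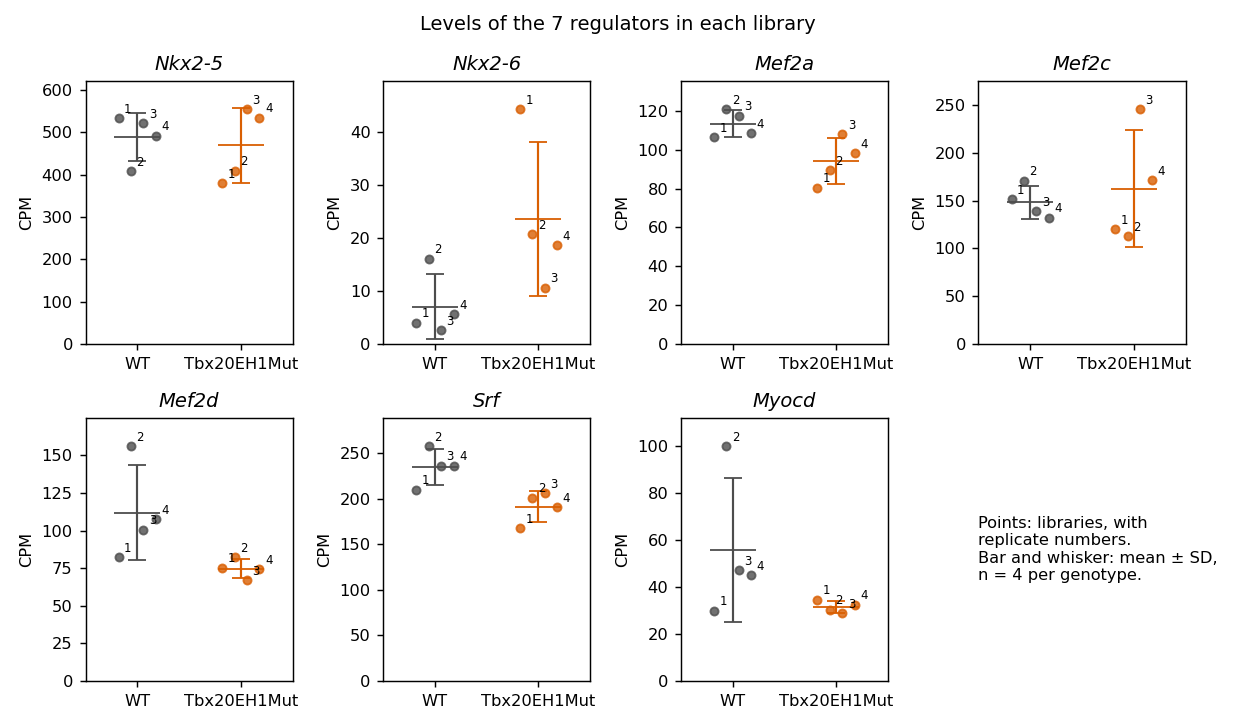
Level of each regulator in CPM (vertical axes, each from 0) in the 4 WT and 4 Tbx20EH1Mut libraries, with replicate numbers beside the points and the mean ± SD as bar and whisker. The genotypes do not overlap for *Mef2d* and *Srf*, WT replicate 2 stands above the other WT libraries for *Nkx2-6*, *Mef2d* and *Myocd*, and MT replicate 3 above all others for *Mef2c*.

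*Nkx2-5* (ENSMUSG00000015579, chromosome 17 from 26838664 to 26841565 of GRCm38, minus strand, 2 exon intervals) is the factor whose expression marks heart muscle progenitors. It was counted at 533, 409, 521 and 492 CPM in WT replicates 1 to 4 and at 379, 409, 554 and 534 CPM in MT replicates 1 to 4. The genotypes overlapped throughout: the lowest and the highest values were both in MT libraries. The log2 fold change, MT over WT, was -0.06 with a 95% interval from -0.40 to 0.29 and an adjusted p of 0.799 (quasi-likelihood test of edgeR, adjusted by Benjamini-Hochberg over all genes tested). The interval reaches to both sides of 0, and the sign turned under upper-quartile scaling (0.02) and without MT replicate 1 (0.04). With the endoderm marker covariate described next it was 0.40, with a 95% interval from 0.05 to 0.76 and an adjusted p of 0.0683 from edgeR. WT replicate 2, the library in which the shortest genes read low, was the lowest of the WT libraries.

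*Nkx2-6* (ENSMUSG00000044186, chromosome 14 from 69171802 to 69175518, plus strand) rose in MT hearts. Its level was 4.07, 16.2, 2.59 and 5.61 CPM in WT replicates 1 to 4 and 44.3, 20.7, 10.7 and 18.7 CPM in MT replicates 1 to 4. A single WT library, replicate 2, lay above an MT library (replicate 3), and the other WT libraries lay below every MT library. Both genotypes varied more than most genes: the coefficient of variation was 86.7% in WT and 61.3% in MT libraries, against medians of 20.2% and 18.7% over all genes tested. The log2 fold change was 1.73 (standard error 0.575, 95% interval from 0.45 to 3.01), 3.31-fold on the linear scale, with an adjusted p of 0.0459 from edgeR's quasi-likelihood test, and 14.0% of all genes tested were called higher.

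WT replicate 2 held the most *Nkx2-6* of its genotype and was also highest for 11 of the 12 markers of pharyngeal and foregut endoderm, and MT replicate 1 was highest for *Nkx2-6* and for 8 of the 12. Within WT the order of the libraries was replicate 2, 4, 1 and 3, and within MT it was replicate 1, 2, 4 and 3. Of the 12 markers, 8 had the same order in WT, 5 in MT and 4 in both (*Epcam*, *Cdh1*, *Foxa2* and *Cldn6*), while others, such as *Shh*, *Foxa1*, *Krt8* and *Pax9*, differed in 1 genotype, and *Sox2*, *Krt18* and *Nkx2-1* in both. *Nkx2-3*, an NK2 gene of the pharyngeal floor and gut and no member of that list, had the same orders as *Nkx2-6*. *Nkx2-3* was at 0.668, 4.91, 0.120 and 1.14 CPM in WT replicates 1 to 4 and at 13.6, 9.85, 2.06 and 9.51 CPM in MT replicates 1 to 4. *Epcam*, an epithelial adhesion gene, was at 1.64, 15.3, 0.657 and 3.03 CPM and at 75.4, 67.2, 10.7 and 27.5 CPM in the same libraries. Of the 12 endoderm markers, 5 were called higher and none lower by edgeR, beside 14.0% and 15.3% of all genes tested. The counts were 7 and 0 at an unadjusted p below 0.05, 5 and 0 by DESeq2 and 9 and 0 by limma-voom. Without WT replicate 2, edgeR called 11 higher. Over all genes, in either direction, DESeq2 called 6303 of 20053, limma-voom 5215 of 17163, and edgeR 4245 of 17593 without WT replicate 2. Most of the summed level of the 12 markers came from *Krt8* and *Krt18*, keratins that the heart also expresses.

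With the mean log2 level of these 12 markers as a covariate in the edgeR fit, the log2 fold change of *Nkx2-6* was -0.38 (adjusted p = 0.263, quasi-likelihood test). This covariate was itself higher in MT libraries, at 0.798, 3.04, 0.462 and 1.42 in WT replicates 1 to 4 and 4.63, 4.17, 2.67 and 3.66 in MT replicates 1 to 4, so marker level and genotype are largely confounded in that fit. With the cardiomyocyte marker level as the covariate it was 2.20 (adjusted p = 0.00224, same test). The call of *Nkx2-6* also rested on the full set of libraries: without WT replicate 1, 3 or 4 or MT replicate 1, 2 or 4 the adjusted p from edgeR was 0.0754, 0.106, 0.116, 0.128, 0.0665 and 0.0785, and the log2 fold change fell to 1.24 without MT replicate 1. Without WT replicate 2 it was 2.54 (adjusted p = 0.00628) and without MT replicate 3 it was 1.99 (adjusted p = 0.0303, both edgeR).

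**Figure D2:**
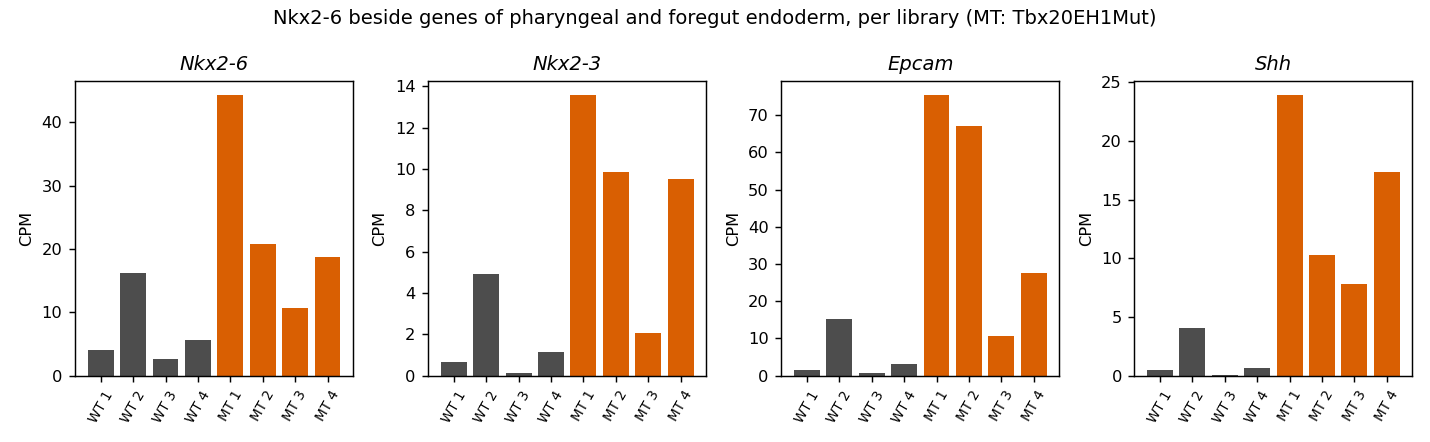
Level in CPM (vertical axes from 0) of *Nkx2-6*, *Nkx2-3*, *Epcam* and *Shh* in each of the 4 WT and 4 MT libraries, genes chosen after their values were seen. All 4 genes are highest in WT replicate 2 and MT replicate 1 and lowest in replicate 3 of both genotypes, but MT replicates 2 and 4 change places for *Shh*, and only 4 of the 12 endoderm markers have the order of *Nkx2-6* in both genotypes.

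The other NK2 genes gave no call in the main edgeR fit, where both of those tested had an unadjusted p below 0.05. DESeq2 called neither and limma-voom called 1. *Nkx2-3* had a log2 fold change of 2.35 (adjusted p = 0.0665) and *Nkx2-1*, a factor of thyroid and lung endoderm, one of 2.61 (adjusted p = 0.0798, both edgeR). Both passed with a fit that used the replicate numbers as a block and with no filter except 1 count. With the endoderm covariate the log2 fold change of *Nkx2-3* turned to -0.55 (adjusted p = 0.428, edgeR). That of *Nkx2-1* was 0.72 in the same fit (adjusted p = 0.817, edgeR). *Nkx2-1* is itself among the markers averaged in that covariate, so it was adjusted partly for its own level. With the cardiomyocyte covariate *Nkx2-3* passed (3.10, adjusted p = 0.00681, edgeR) and *Nkx2-1* did not. With 1 library left out, *Nkx2-3* passed without WT replicate 2 (3.79, adjusted p = 0.00932) or MT replicate 3 (2.69, adjusted p = 0.0401), and *Nkx2-1* without WT replicate 4 (4.43, adjusted p = 0.0178) or MT replicate 3 (2.98, adjusted p = 0.0469, all edgeR). *Nkx2-2*, *Nkx2-4* and *Nkx2-9* averaged under 0.2 CPM over the 8 libraries and were not tested. Relative to *Nkx2-5* in the same library, *Nkx2-6* per kilobase stood at a log2 ratio of -6.02 ± 1.29 in WT and -4.06 ± 1.09 in MT hearts (SD, n = 4). That difference of 1.97 was not separated from the spread between libraries by the exact two-sided permutation test (p = 0.0857, adjusted p = 0.286 over 5 within-library comparisons, 70 arrangements each). A ratio separated alone could not have passed 0.05 after this adjustment.

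*Mef2d* (ENSMUSG00000001419, chromosome 3 from 88142372 to 88172086, plus strand), the MEF2 gene with the highest level per exon length, fell in MT hearts. It was at 82.4, 156.2, 100.6 and 107.7 CPM in WT replicates 1 to 4 and at 75.4, 82.1, 66.8 and 74.4 CPM in MT replicates 1 to 4. No MT library reached a WT library, but the gap was narrow, from 82.08 CPM in MT replicate 2 to 82.39 CPM in WT replicate 1. The log2 fold change was -0.58 (standard error 0.179, 95% interval from -0.98 to -0.18), 0.668 times the WT level, with an adjusted p of 0.0352 from edgeR's quasi-likelihood test. Of all genes tested, 15.3% were called lower and 30.5% had no overlap between the genotypes, as did 2 of the 7 regulators.

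WT replicate 2 set part of the size of the *Mef2d* difference. Without it the log2 fold change was -0.36 and the adjusted p 0.0513 (edgeR). Without WT replicate 3 or 4 or MT replicate 1, 3 or 4 the adjusted p was 0.0584, 0.0724, 0.0727, 0.0721 and 0.0861, with fold changes from -0.64 to -0.52, while the call was kept without WT replicate 1 (0.00894) or MT replicate 2 (0.0495). With its 5985 exon bases *Mef2d* belongs to the quartile of longest genes, which read high in WT replicate 2, and the part of this in the result was not tested. With all 8 libraries *Mef2d* passed under every alternative, from -0.45 with the cardiomyocyte covariate (adjusted p = 0.0468) to -1.12 with the endoderm covariate (adjusted p = 0.00103, both edgeR). The scatter differed as well, with a coefficient of variation of 28.2% in WT and 8.40% in MT libraries, a difference that was not tested.

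*Mef2a* (ENSMUSG00000030557, chromosome 7 from 67231163 to 67372858, minus strand), the MEF2 gene that persists in adult heart muscle, was at 106, 121, 118 and 108 CPM in WT replicates 1 to 4 and at 80.5, 89.5, 108 and 98.1 CPM in MT replicates 1 to 4. Only MT replicate 3 reached into the WT range. The log2 fold change was -0.27 (95% interval from -0.52 to -0.01) with an adjusted p of 0.0998 from edgeR, below 0.05 only with library size alone as the scaling (0.0344) and with the cardiomyocyte covariate (0.0290).

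*Mef2c* (ENSMUSG00000005583, chromosome 13 from 83504034 to 83667080, plus strand), the MEF2 gene expressed first in heart precursors, was at 151, 171, 139 and 132 CPM in WT replicates 1 to 4 and at 120, 113, 245 and 171 CPM in MT replicates 1 to 4. MT libraries lay on both sides of the WT range, with replicates 1 and 2 below it, replicate 4 at its upper end and replicate 3 far above it. Its log2 fold change was 0.13 (95% interval from -0.38 to 0.64, adjusted p = 0.689 from edgeR) and turned to -0.13 without MT replicate 3. That library also had the highest summed level of cardiomyocyte markers, 37979 CPM, and with those markers as a covariate the log2 fold change of *Mef2c* was -0.14. The coefficient of variation of *Mef2c* was 11.6% in WT and 37.6% in MT libraries.

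Together the 3 MEF2 genes form a pool in which *Mef2d* held the largest share per exon length, 51.5% ± 5.41 in WT and 43.5% ± 8.25 in MT hearts (SD, n = 4). *Mef2c* held 26.6% ± 3.31 and 34.6% ± 8.46, and *Mef2a* 21.9% ± 2.61 and 21.9% ± 0.604. In MT replicate 3 the order was inverted, with 45.8% for *Mef2c* and 32.7% for *Mef2d*, and in every other library *Mef2d* held the largest share. This order rests on the division by joined exon length (15715 bases for *Mef2c*, 5985 for *Mef2d*): in undivided CPM *Mef2c* lay above *Mef2d* in all 8 libraries. The exact two-sided permutation test separated none of the shares (p = 0.171 for *Mef2d*, 0.114 for *Mef2c* and 1 for *Mef2a*, and adjusted p of at least 0.286 over the 5 comparisons). The smallest p that 4 libraries against 4 allow is 0.0286.

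*Srf* (ENSMUSG00000015605, chromosome 17 from 46546839 to 46556162, minus strand) was at 210.0, 258.0, 236.4 and 236.1 CPM in WT replicates 1 to 4 and at 167.5, 201.0, 206.4 and 190.5 CPM in MT replicates 1 to 4. All MT libraries lay below all WT libraries. The scatter was small in both genotypes, with coefficients of variation of 8.35% and 8.99%. The difference on the log2 scale was -0.30 (standard error 0.113, 95% interval from -0.55 to -0.05), 0.814 times the WT level, and the adjusted p of 0.0706 from edgeR did not pass the threshold. DESeq2's Wald test gave 0.0454 and edgeR without WT replicate 1 gave 0.0373, while upper-quartile scaling gave -0.21 and 0.155.

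*Myocd* (ENSMUSG00000020542, chromosome 11 from 65176561 to 65269989, minus strand) encodes the coactivator that gives SRF its muscle targets and is found in heart and smooth muscle. It was at 29.9, 99.9, 47.1 and 44.9 CPM in WT replicates 1 to 4 and at 34.6, 30.2, 28.8 and 32.4 CPM in MT replicates 1 to 4. The MT libraries were tightly grouped (coefficient of variation 8.01%), whereas the WT libraries spread over a wide range (55.2%) and WT replicate 1 lay inside the MT range. The log2 fold change was -0.82 (standard error 0.305, 95% interval from -1.49 to -0.14) with an adjusted p of 0.0673 from edgeR.

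WT replicates 1 and 2 pulled the *Myocd* estimate in opposite directions. Without replicate 1 it was -1.03 (adjusted p = 0.0129), without replicate 2 it was -0.36 (adjusted p = 0.125), and without both, a choice made after seeing the data, it was -0.55 (adjusted p = 0.0122, all edgeR). *Myocd*, with 6424 exon bases, is also in the quartile of longest genes, and the part of the length trend in its spread was not tested. The log2 ratio of *Myocd* to *Srf* per kilobase was -2.88 ± 0.610 in WT and -3.25 ± 0.246 in MT hearts (SD, n = 4), with WT replicates 1 and 2 at the ends of the WT range, -3.46 and -2.02. The genotypes were not separated (exact two-sided permutation p = 0.343).

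**Figure D3:**
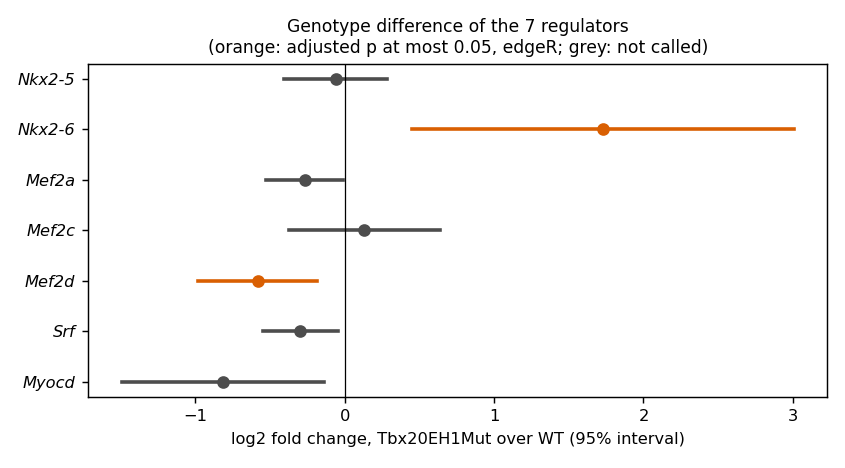
Log2 fold change of each regulator, MT over WT (horizontal axis), as point and 95% interval from edgeR's quasi-likelihood fit to 4 libraries per genotype. Orange marks *Nkx2-6* and *Mef2d*, whose adjusted p was at most 0.05, and the intervals of *Nkx2-5* and *Mef2c* contain 0.

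**Figure D4:**
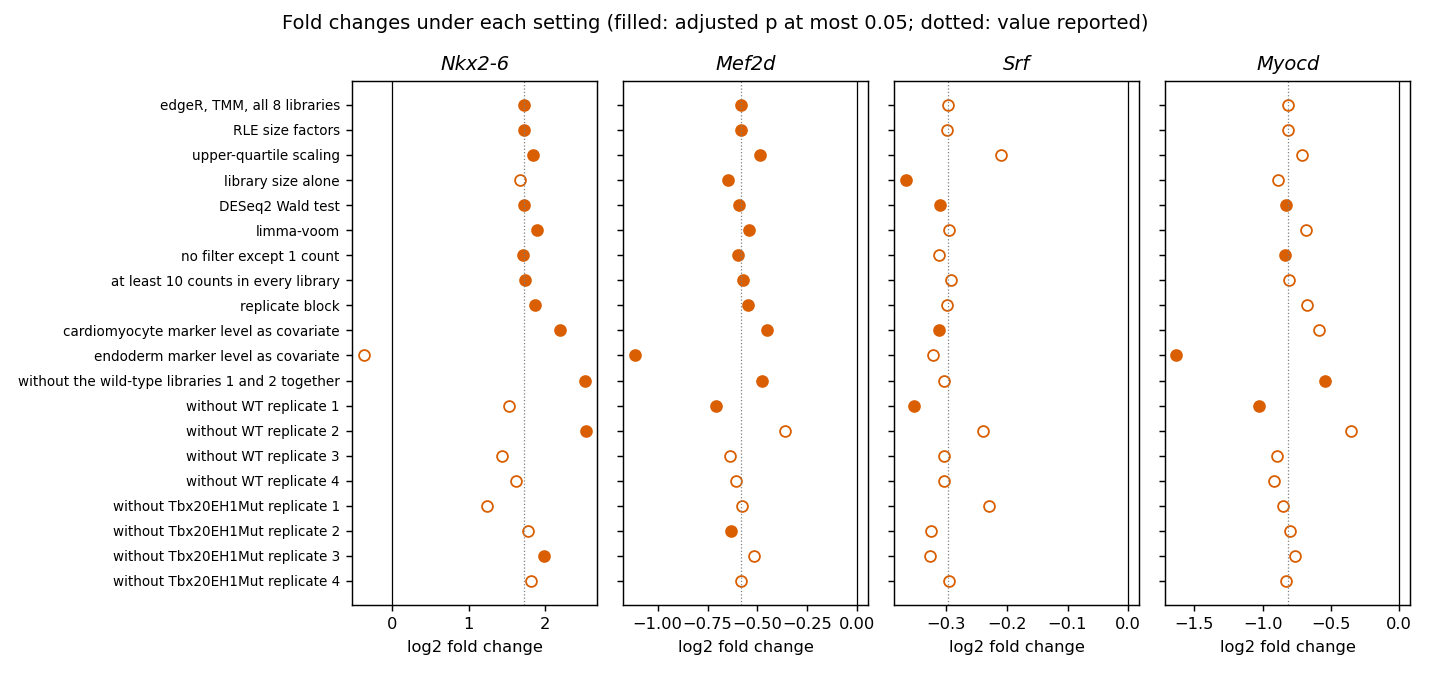
Log2 fold changes (horizontal axes) of *Nkx2-6*, *Mef2d*, *Srf* and *Myocd* under each setting and with single libraries left out (rows), filled where the adjusted p was at most 0.05, with a dotted line at the value given in the text. *Mef2d*, *Srf* and *Myocd* stay below 0 in all rows, and *Nkx2-6* stays above 0 except with the endoderm covariate, at -0.38.

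Some genes share exon bases with a neighbour on the other strand, and the strand setting of the counting is not given in the sources used here. *Mef2d* shares 531 bases (8.87% of its exons) with 1700113A16Rik (500 counts in all 8 libraries, against 31319 for *Mef2d*). *Nkx2-6* shares 56 bases with 1700092C10Rik (97 against 4853 counts), and *Mef2a* shares 302 bases with *Lysmd4* (3567 against 33945 counts). Of the 7 regulators, *Nkx2-5* and *Srf* have another start or end in GENCODE M21 than in the deposited tables.

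The genes with the profile most like each regulator over the 8 libraries were found by the smallest root mean square difference between centred log2 CPM values. The search covered 10500 tested genes that averaged 5 CPM or more and did not have a predicted-gene or clone name. For *Mef2d* they were *Pacs2* at 0.0310 and *Acacb* at 0.0374, the smallest differences, against its own spread of 0.367 on the same scale. For *Srf* they were *Smad2* (0.0409) and *Parg* (0.0479), and for *Mef2a* they were *Ppp4r2* (0.0405) and *Ppm1d* (0.0457). *Nkx2-5* was nearest to *Chuk* (0.0583) and *Nptn* (0.0623), and *Mef2c* to *Ammecr1* (0.0889) and *Prkce* (0.0922). The neighbours of *Myocd*, whose own spread was 0.556, were *Zbtb37* (0.112) and *Plekhg2* (0.123). Those of *Nkx2-6*, whose own spread was 1.21, were *Crabp1* (0.407) and *Plppr3* (0.430). The own spread was smaller for *Srf* (0.185), *Mef2a* (0.184), *Nkx2-5* (0.201) and *Mef2c* (0.333). Because these differences grow with a gene's own spread, their sizes do not rank the regulators by closeness of their neighbours.

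Genes that act with, upstream of or downstream of the 7 regulators were taken from 8 lists holding 81 genes, of which 76 were tested. In these, 15 were called higher (19.7%, against 14.0% of all genes tested), 16 lower (21.1%, against 15.3%) and 45 neither, and the median log2 fold change was 0.02, against 0.00477 over all genes tested. The lists are described by their counts alone.

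Among genes upstream of *Nkx2-5* and *Mef2c*, 8 of 11 were called, 4 in each direction, where 29.3% of all genes tested were called. *Isl1*, the LIM homeodomain factor that acts on *Mef2c* in second heart field cells, rose from 12.5 to 26.1 CPM in WT libraries to 77.9 to 170.8 CPM in MT libraries (log2 fold change 2.60). *Bmp4*, a ligand that induces *Nkx2-5*, rose from 47.7 to 57.2 CPM to 92.6 to 120.5 CPM (1.03). *Bmp2*, another such ligand, fell from 52.1 to 69.0 CPM to 17.97 to 33.8 CPM (-1.26). Its log2 fold change lay between -1.42 and -0.74 over the 11 alternatives, each of which kept the call. *Foxh1*, a forkhead partner of Nkx2-5 at *Mef2c*, fell from 15.8 to 40.5 CPM to 8.75 to 13.9 CPM (-1.27). These inputs moved in both directions, while *Nkx2-5* and *Mef2c* themselves were not called.

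Of 11 Nkx2-5 target genes, 4 were called higher and 4 lower, against 14.0% and 15.3% of all genes tested. *Fgf10*, a second heart field ligand repressed by Nkx2-5, rose from 6.74 to 9.67 CPM in WT libraries to 33.4 to 68.2 CPM in MT libraries (log2 fold change 2.40), and *Ankrd1*, a cardiac ankyrin repeat protein, rose by 1.18 on the log2 scale. *Hand1*, a ventricular bHLH factor, fell by 2.51 and *Gja5*, the connexin of fast-conducting muscle, fell by 1.72 on the log2 scale. All 4 genes were called by edgeR in each fit that left out 1 library.

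Among MEF2 partners, 2 of 8 tested genes were called, both lower, by edgeR, DESeq2 and limma-voom alike, and edgeR called 15.3% of all genes tested lower. At an unadjusted p below 0.05, 2 were higher and 2 lower. *Cabin1*, a repressor that holds MEF2 inactive with histone deacetylases, fell from 33.9 to 74.95 CPM in WT libraries to 18.2 to 24.6 CPM in MT libraries (log2 fold change -1.15, adjusted p = 0.00519 from edgeR). *Mapk14*, the p38 kinase that phosphorylates MEF2 proteins, fell from 63.2 to 106.5 CPM to 51.4 to 59.9 CPM (-0.54, adjusted p = 0.0243), and its adjusted p was 0.0522, 0.0568 and 0.0702 without WT replicate 3, WT replicate 4 or MT replicate 4. *Mef2b*, the remaining MEF2 gene, averaged under 0.2 CPM and was not tested.

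Of 11 MEF2 target genes, 1 was called higher and 3 lower (14.0% and 15.3% over all genes tested). *Myh6*, the alpha myosin heavy chain, fell by 1.26 and *Smyd1*, a muscle histone methyltransferase, fell by 0.72 on the log2 scale. *Xirp1*, an actin-binding protein of intercalated discs, fell by 0.86, with an adjusted p of 0.0631, 0.0534 and 0.0623 from edgeR without MT replicate 1, 2 or 4. In WT it was at 260.3 CPM in replicate 2 and between 104.7 and 137.8 CPM in the others, and without WT replicate 2 its log2 fold change was -0.50 (adjusted p = 0.0129 from edgeR). *Tdgf1*, a Nodal co-receptor of the outflow tract, rose by 1.69 on the log2 scale, from 28.3 to 43.9 CPM in WT libraries to 79.7 to 167.9 CPM in MT libraries. Without WT replicate 2 the calls in this list again numbered 1 higher and 3 lower.

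The 2 groups of SRF targets gave different counts, a difference that was not tested. Of 16 muscle targets of SRF and Myocardin, none was called higher by edgeR and 2 lower, with a median log2 fold change of -0.02, beside 14.0% higher and 15.3% lower over all genes tested. At an unadjusted p below 0.05, 3 were higher and 3 lower, while DESeq2 called 1 higher and 3 lower and limma-voom 0 and 1. *Smtn*, the smooth muscle protein smoothelin, fell from 57.5 to 96.9 CPM in WT libraries to 32.4 to 42.9 CPM in MT libraries (-0.95, adjusted p = 0.00283 from edgeR). *Vcl*, the adhesion protein vinculin, was called lower (-2.40, adjusted p = 0.0307 from edgeR), but it ranged from 8.56 CPM in WT replicate 1 to 119.7 CPM in WT replicate 2, and its adjusted p exceeded 0.05 without WT replicate 2, 3 or 4 (0.0827, 0.0611 and 0.0582) and without MT replicate 1, 3 or 4 (0.0700, 0.0631 and 0.0883). Limma-voom gave *Vcl* an adjusted p of 0.0671. Without MT replicate 2 its log2 fold change was -3.04, and without WT replicate 2 it was -1.78. The count of calls in this list was 1 without WT replicate 2, 3 or 4 or MT replicate 3 or 4, and rose to 8 with the endoderm covariate. The fit with that covariate called 6724 of all 17163 genes tested, against 5024 without it.

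Of 9 tested targets of SRF with ternary complex factors, 4 were called higher and none lower by edgeR, with a median log2 fold change of 0.61, beside 14.0% higher and 15.3% lower over all genes tested. The counts were again 4 and 0 at an unadjusted p below 0.05 and from DESeq2 and limma-voom. The median is the value of *Egr2*, which was near the floor, at means of 0.193 CPM in WT and 0.305 CPM in MT libraries. It was not called (adjusted p = 0.560 from edgeR). The other genes not called had log2 fold changes of 0.26 (*Dusp1*), -0.05 (*Egr1*), -0.11 (*Mcl1*) and -0.24 (*Fosb*), so the rise is that of the called genes and not of the whole list. *Fos*, an immediate-early AP-1 gene, rose from 5.02 to 9.10 CPM in WT libraries to 14.0 to 23.2 CPM in MT libraries (1.36). *Junb*, its dimer partner, rose from 7.92 to 9.06 CPM to 13.9 to 18.9 CPM (0.95). *Ccn1*, a matrix signalling protein, rose by 0.85 and *Ier2*, an immediate-early response gene, by 0.82 on the log2 scale. All 4 kept an adjusted p of at most 0.05 in each fit with 1 library left out. Immediate-early genes also respond to the handling of tissue before RNA is isolated, and its part in this result was not tested.

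Among 9 SRF partners, 3 were called higher and 1 lower, again beside 14.0% and 15.3% over all genes tested. *Fhl2*, a LIM protein that binds SRF, rose from 104 to 167 CPM in WT libraries to 187 to 346 CPM in MT libraries (0.86, adjusted p = 0.0127 from edgeR). *Hopx*, a homeodomain protein without DNA binding that restrains SRF, rose from 110.2 to 191.6 CPM to 191.5 to 347 CPM (0.78, adjusted p = 0.0231), and its adjusted p was 0.0554, 0.0511, 0.0576 and 0.0690 without WT replicate 3 or 4 or MT replicate 3 or 4, and 0.0559 without WT replicates 1 and 2 together. *Elk3*, an ETS ternary complex factor, rose by 0.44 on the log2 scale, with an adjusted p of 0.0507 and 0.0503 without WT replicate 3 or 4. *Elk1*, another of these factors, was lower (-0.42, adjusted p = 0.0380 from edgeR) and lost the call without WT replicate 2, 3 or 4 or MT replicate 1, 3 or 4, where the adjusted p lay between 0.0702 and 0.0945. With all 8 libraries it also lost the call under upper-quartile scaling (0.0661), with no filter except 1 count (0.0618) and with the replicate block (0.0542). The count of calls in this list was 1 without WT replicate 3 or 4, and 7 with the endoderm covariate, where 6724 of all 17163 genes tested were called.

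**Figure D5:**
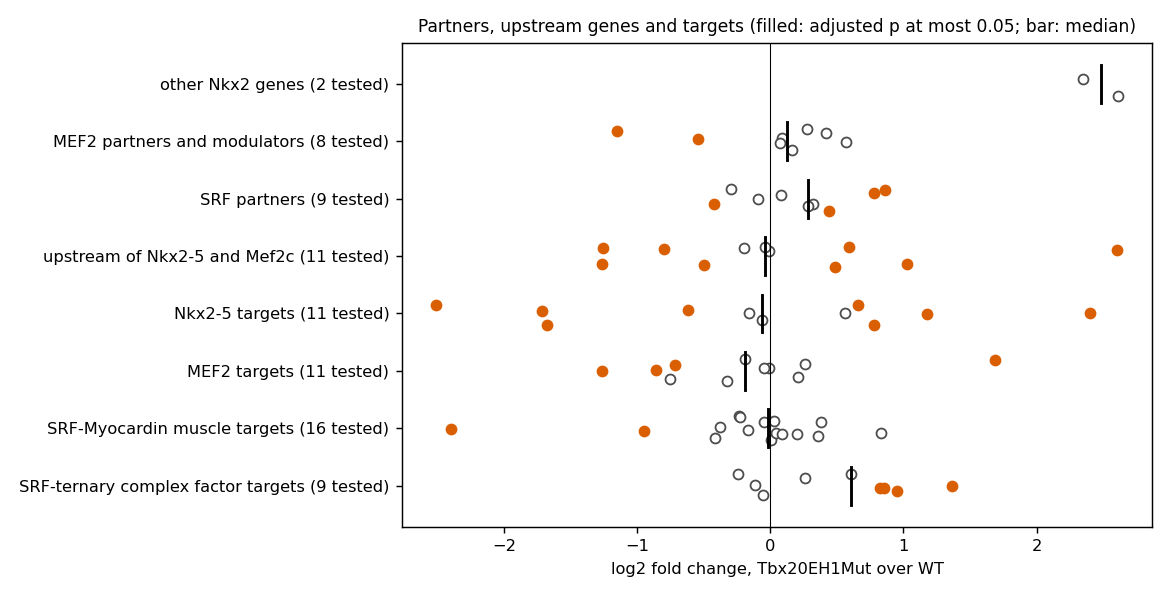
Log2 fold change, MT over WT (horizontal axis), of the tested genes in each list of partners, upstream genes and targets (rows), filled orange where edgeR's adjusted p was at most 0.05, with the list's median as a bar. The upstream genes and Nkx2-5 targets hold called genes on both sides of 0, the muscle targets of SRF and Myocardin lie mostly near 0, and the 4 called targets of SRF with ternary complex factors lie above it.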

How the data were processed

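Whole hearts at embryonic day 9.5 were sequenced as poly-A selected paired-end libraries at a company. For every library the authors deposited raw counts per Ensembl gene, without normalization. The submitters' processing notes name Trimmomatic 0.36, STAR 2.5.2b and GRCm38 (mm10). The counting tool, annotation and strand setting are not given in the sources used here. Symbols were matched by identifier to GENCODE M21.

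Counts were analysed with R 4.3.3 and edgeR 4.0.16: filterByExpr, TMM scaling, glmQLFit and glmQLFTest with genotype as the only term, and Benjamini-Hochberg adjustment over 17163 genes. Genes with an adjusted p of 0.05 or less were called. Levels are CPM on the TMM-scaled library size, divided by exon length only where genes are compared. Ratios and shares within a library were compared by exact two-sided permutation tests, adjusted by Benjamini-Hochberg over 5 comparisons with scipy 1.17.1. The steps were tested on simulated data. No 2 libraries of a genotype agreed within sampling noise, so none was treated as a repeat deposit of another.

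The regulators, lists and alternatives were chosen with earlier results of these data known. Besides the 7 regulators and *Tbx20*, the text names the called genes of a list where these numbered 5 or fewer, otherwise the 2 largest rises and falls, a gene not called where its role is needed, and for each regulator the 2 genes most like it. Alternatives were RLE, upper-quartile and library size scaling, DESeq2 1.42.0, limma-voom (limma 3.58.1), a filter of only 1 count in all or of 10 counts in each library, a replicate block, the mean log2 CPM (0.5 CPM added) of cardiomyocyte or endoderm markers as a covariate, each library left out in turn, raw shares, and ratios with 5 counts added. Leaving out WT replicates 1 and 2 together was added after seeing the data. Plots were drawn with matplotlib 3.10.9.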

Additional observations from a re-analysis of the deposited data

How the results depend on the processing

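The direction of the *Mef2a*, *Mef2d*, *Srf* and *Myocd* differences was the same in all 11 alternatives and all 8 fits with 1 library left out. That of *Nkx2-5* turned with upper-quartile scaling (0.0206) and the endoderm covariate (0.40, adjusted p = 0.0683), that of *Nkx2-6* with the endoderm covariate (-0.38, adjusted p = 0.263), and that of *Mef2c* with the cardiomyocyte covariate (-0.14). With library size alone, *Nkx2-6* lost its call (1.68, adjusted p = 0.0629), and *Mef2a* (-0.34, adjusted p = 0.0344) and *Srf* (-0.37, adjusted p = 0.0357) passed. The cardiomyocyte covariate let *Mef2a* (-0.34, adjusted p = 0.0290) and *Srf* (-0.31, adjusted p = 0.0487) pass, and DESeq2 let *Srf* (-0.31, adjusted p = 0.0454) and *Myocd* (-0.83, adjusted p = 0.0241) pass, which brought the regulators called to 4 in each. *Myocd* also passed with no filter (-0.83, adjusted p = 0.0429), with the endoderm covariate (-1.63, adjusted p = 0.00172) and without WT replicates 1 and 2 together (-0.55, adjusted p = 0.0122). The raw *Mef2a* share, not divided by length, was lower by 1.87 percentage points in MT hearts (a difference of -1.87, exact permutation p = 0.343), against 0.0489 in the other direction. The cause of these changes was not tested.

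With 1 library left out, the log2 fold changes from edgeR lay between -0.14 and 0.0380 for *Nkx2-5*, 1.24 and 2.54 for *Nkx2-6*, -0.33 and -0.19 for *Mef2a*, -0.13 and 0.27 for *Mef2c*, -0.71 and -0.36 for *Mef2d*, -0.35 and -0.23 for *Srf* and -1.03 and -0.36 for *Myocd*. Between 0 and 3 regulators were called in these fits. Differences in share ranged from -1.18 to 0.686 percentage points for *Mef2a*, 4.24 to 10.6 for *Mef2c* and -10.4 to -4.41 for *Mef2d*. The smallest adjusted p of the exact permutation tests on these shares was 0.357 for *Mef2a* and 0.214 for *Mef2c* and *Mef2d*.

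The labels do not say that the replicate numbers pair the libraries. Libraries of the same number deviated from their group means with correlations of -0.35, 0.38, 0.08 and 0.08, inside the range of -0.50 to 0.51 for libraries of different numbers. With so few libraries these values cannot decide whether any were paired. With the replicate block, *Nkx2-6* had a log2 fold change of 1.88 (adjusted p = 0.0240), *Mef2d* -0.55 (0.0381), *Srf* -0.30 (0.103) and *Myocd* -0.67 (0.117) in edgeR, and calls over all genes went from 5024 to 3945. With 1 library left out, edgeR called between 3001 genes (without WT replicate 4) and 6586 (without WT replicate 1), with 3061 without WT replicate 3 and 3028 without MT replicate 4. Over all genes, edgeR called 6724 with the endoderm covariate. In the partner, upstream and target lists, 31 genes were called, between 31 and 43 over the alternatives and 25 and 33 with 1 library left out. By list, the number of calls over the alternatives was 2 to 7 for SRF partners (4 in the text), 1 to 8 for muscle targets of SRF and Myocardin (2), 2 to 4 for MEF2 partners (2), 0 to 2 for the other NK2 genes (0), 4 to 6 for MEF2 targets (4), 7 to 9 for the upstream genes (8) and for Nkx2-5 targets (8), and 4 to 5 for targets with ternary complex factors (4). Among the 7 regulators *Nkx2-6* had the fewest counts, 130 in its lowest library.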
